A study of Mus musculus with 12 samples.

Results

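Atf3, Sprr1a, Gap43, Sox11, Jun, Csf1, Ecel1, Adcyap1, Cap1 and Gadd45a are 10 genes whose RNA is known to rise in motor neurons once the axon is cut. They were chosen by name and matched by mouse symbol to the Ensembl genes of the count files, and all 10 were found among 49548 genes. A filter on low counts, which asked for a CPM (counts scaled to a common library total) above 1 in at least 3 libraries, kept 9 of the 10 and removed Sprr1a. Gene coordinates below are of GRCm38, from the GENCODE annotation. The question was whether they rise in the lumbar spinal cord of MFN2 mice. In the comparison of all MFN2 mice with all WT mice, 0 of the 9 genes passed the test in either direction, beside 0 of all 15942 genes tested (0%).

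RNA from lumbar spinal cord was sequenced from 8 MFN2 and 4 WT mice, all untreated and 30 days old, with 1 library per mouse. MFN2 mice (MitoCharc1) carry the transgene Tg(Eno2-MFN2*R94Q) of line L51Ugfm/J on a B6;D2 background, that is human MFN2 with the R94Q change found in Charcot-Marie-Tooth type 2A, an axonal neuropathy, and WT mice are labelled C57BL/6 and were littermates according to the methods. The transgene is driven by the rat Eno2 promoter, which is active mainly in neurons, the mice keep both normal mouse copies of the gene, and all come from that single line. The libraries held 19359454 to 26738930 counts in MFN2 mice (median 23074724) and 19453238 to 23564568 in WT mice (median 22537154).

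When a peripheral axon is interrupted, a kinase relay that runs through DLK and JNK carries the signal back to the cell body, where JUN and ATF3 switch on a programme of regrowth. SOX11 joins these factors, GAP43, SPRR1A and other proteins of the growth cone are made in bulk, and the neuron releases peptides and cytokines, among them CSF1, which drives nearby microglia to divide. Healthy adult motor neurons keep most of this programme low, so these genes serve as a readout of axons that have lost contact with muscle.

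One MFN2 library, number 43, stood apart from the other 11. On the first principal component, which held 33.4% of the variance, it lay at 91.9, and the others lay between -23.2 and 0.684. The 8 forebrain marker genes, of which only Tbr1 did not pass the filter, summed to 4685 CPM in library 43, against 140.3 to 207 CPM in the other MFN2 libraries and 109 to 142 CPM in WT, and their most abundant gene, the cortical kinase subunit Camk2a, stood at 1920 CPM there. The 8 motor neuron markers, all of which passed the filter, summed to 42.5 CPM in library 43, against 178 to 314 CPM in the other MFN2 libraries and 205 to 432 CPM in WT, and their most abundant gene was the intermediate filament Prph. Measured this way, the tissue label of library 43 goes against its markers, and the main results below are given with and without it.

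The libraries also fell into 2 runs of library numbers. MFN2 libraries 41 to 43 and all WT libraries (44 to 47) belong to the first run, and MFN2 libraries 72 to 76 to the second. On the second principal component (25.3% of the variance), libraries 41 to 47 lay between 9.26 and 35.9 and libraries 72 to 76 between -35.6 and -21.0. No WT mouse was in the second run, so there genotype and run cannot be told apart.

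In WT cord the 10 genes spanned a wide range of levels. By RPKM, the CPM divided by exon length, the highest was Cap1, at 46.96 ± 3.17 (SD, n = 4 here and below), followed by Gap43 at 40.3 ± 7.51 and Jun at 27.6 ± 2.70. The middle of the order was held by Ecel1 at 7.82 ± 1.18, Csf1 at 7.32 ± 1.08 and Gadd45a at 7.04 ± 0.510 RPKM. Taking the longest transcript as the length turned this part of the order, to Gadd45a at 10.2, Csf1 at 9.26 and Ecel1 at 9.03 RPKM. Adcyap1 at 3.02 ± 0.790, Sox11 at 1.69 ± 0.203, Atf3 at 0.401 ± 0.0781 and Sprr1a at 0.233 ± 0.321 RPKM came last. The WT values of 4 neighbouring pairs overlapped (Cap1 and Gap43, Ecel1 and Csf1, Csf1 and Gadd45a, Atf3 and Sprr1a), while the other steps separated all 4 mice. Atf3 stood above only 7.86% of the tested genes in WT, and Gap43 above 94.7%.

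**Figure D1:**
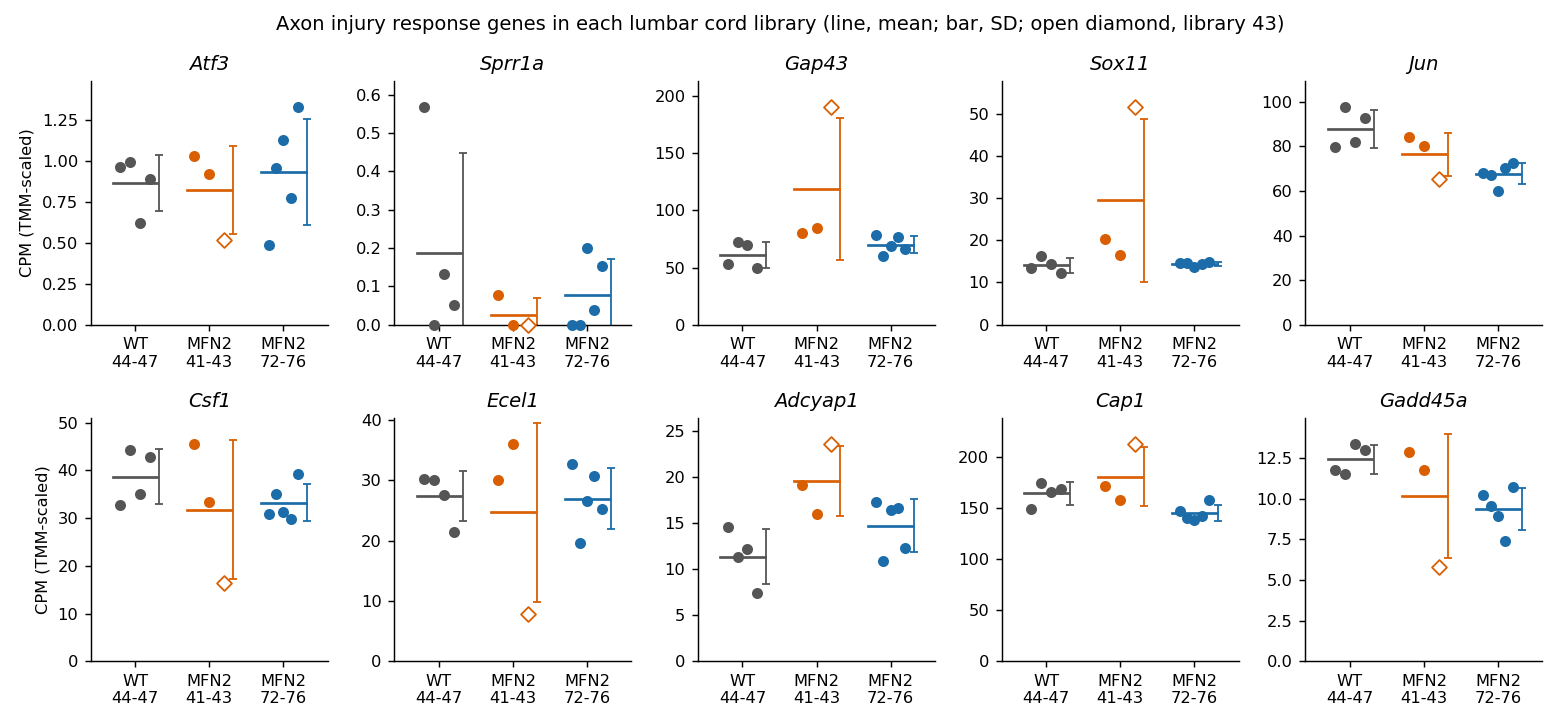
CPM of the 10 axon injury response genes in each library, with WT in grey, MFN2 libraries 41 to 43 in orange and MFN2 libraries 72 to 76 in blue; each point is 1 mouse, the line is the mean, the bar the SD, and library 43 is the open diamond. Atf3 and Sprr1a lie near the floor in all 12 mice, library 43 is the highest for Gap43, Sox11, Adcyap1 and Cap1 and the lowest for Csf1, Ecel1 and Gadd45a, and Jun is lower in all 5 blue points than in all 4 grey ones.

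Atf3 (ENSMUSG00000026628, chr1:191170296-191218039, minus strand), a stress-induced transcription factor that is close to silent in uninjured motor neurons, was barely detected in either genotype. In WT it was at 0.960, 0.989, 0.620 and 0.887 CPM in libraries 44 to 47, that is 14 to 22 reads. In MFN2 mice it ranged from 0.483 to 1.33 CPM with a median of 0.935. The WT range lay wholly inside the MFN2 range. Only MFN2 libraries 41, 74 and 76 (1.03, 1.13 and 1.33 CPM) held more than 1 CPM. Atf3 thus passed the filter through MFN2 mice alone, and its values below are a description only. The log2 fold change, MFN2 against WT here and below, was 0.04 (SE 0.29, 95% interval -0.58 to 0.66, n = 8 and 4), with an adjusted p of 0.950 by edgeR's quasi-likelihood test (Benjamini-Hochberg, over all 15942 genes tested). Without library 43 it was 0.12 (adjusted p = 0.827, same test). The upper end of the 95% interval was a 1.58-fold rise over all mice, 1.66-fold without library 43 and 1.73-fold in libraries 72 to 76 against WT. For libraries 41 to 43 against WT it was 1.646-fold, and 1.965-fold with library 43 left out.

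Jun (ENSMUSG00000052684, chr4:95049034-95052222, minus strand), the transcription factor that JNK activates and that early motor neuron responses to axon damage depend on, was lower in most MFN2 libraries. In WT it was at 79.5, 97.6, 81.8 and 92.6 CPM in libraries 44 to 47. In MFN2 libraries 41 to 43 it was at 84.0, 80.0 and 65.5 CPM, and in libraries 72 to 76 at 67.8, 67.2, 60.2, 70.4 and 72.5 CPM. Libraries 41 and 42 lay within the WT range and the other 6 MFN2 libraries below it. Over all mice the log2 fold change was -0.31 (SE 0.09, 95% interval -0.50 to -0.11), with an unadjusted p of 0.00468 and an adjusted p of 0.262 (edgeR's quasi-likelihood test), and without library 43 it was -0.29 (adjusted p = 0.119). Jun thus did not pass the test over all mice, a fit that does not separate the runs. The antisense gene Junos overlaps Jun and held 23 to 43 reads, so that without known strand settings a small part of the Jun count cannot be assigned.

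Sox11 (ENSMUSG00000063632, chr12:27334264-27342574, minus strand), a transcription factor of developing neurons that is switched on again during regrowth, was high in one library. In WT it was at 13.5, 16.2, 14.3 and 12.2 CPM in libraries 44 to 47. In MFN2 libraries 41 to 43 it was at 20.3, 16.5 and 51.5 CPM, and in libraries 72 to 76 at 14.6, 14.6, 13.6, 14.3 and 14.8 CPM. Library 43 held more than any other library, library 41 lay above and library 42 just above the highest WT mouse, and all 5 mice of the second run lay inside the WT range. This gave a log2 fold change of 0.51 (SE 0.35, 95% interval -0.25 to 1.27, adjusted p = 0.478 by edgeR's quasi-likelihood test), which was 0.15 without library 43 (interval -0.09 to 0.39, adjusted p = 0.460).

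Gap43 (ENSMUSG00000047261, chr16:42248442-42340651, minus strand), a membrane protein of growth cones, followed the same libraries. In WT it was at 53.0, 72.5, 69.7 and 50.0 CPM in libraries 44 to 47. In MFN2 libraries 41 to 43 it was at 80.6, 84.9 and 190.4 CPM, and in libraries 72 to 76 at 78.8, 59.9, 69.3, 76.5 and 66.4 CPM. Of the 8 MFN2 mice, those of the first run and libraries 72 and 75 lay above the WT range, and the other 3 lay within it. Its log2 fold change of 0.53 (SE 0.28, 95% interval -0.08 to 1.14) had an adjusted p of 0.380 in edgeR's quasi-likelihood test, and without library 43 it was 0.27 (interval 0.02 to 0.52, unadjusted p = 0.0392, adjusted p = 0.215). Across 12 libraries Gap43 and Sox11 correlated at r = 0.94, and at r = 0.71 across the 11 without library 43, as a description only, since these points share library, run and tissue sample. The summed forebrain markers correlated with Gap43 at r = 0.93 over 12 libraries and r = 0.77 over 11, and with Sox11 at r = 0.97 and 0.73. Outside library 43 most of this sum came from Camk2a alone. Both genes are also expressed by forebrain neurons, and the part of forebrain RNA in their levels was not tested.

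Sprr1a (ENSMUSG00000050359, chr3:92483952-92485895, minus strand), a cornified envelope protein that is absent from resting neurons and assists axon outgrowth after injury, was not detectably present above a handful of reads. WT libraries 44 to 47 held 13, 0, 3 and 1 reads. MFN2 libraries 41 to 43 held 2, 0 and 0 reads, and libraries 72 to 76 held 0, 0, 5, 1 and 3. The largest count of all 12 libraries was thus in a WT mouse, and 4 of 8 MFN2 and 1 of 4 WT libraries were at 0. The difference in mean log2 CPM was -0.65, with p = 0.279 by an exact permutation of the genotype labels (two-sided, 495 arrangements, smallest p 0.00202), and -0.57 with p = 0.376 (exact permutation) without library 43. Of 7 keratinocyte markers 2 passed the filter, Krt1 (24 to 62 reads) and Krt10 (32 to 70 reads), both present in all 12 libraries, and Sprr1b and Sprr2a1 were at 0 in every library. The keratinocyte sums were 3.38 to 4.92 CPM in MFN2 and 3.01 to 4.76 CPM in WT libraries.

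The promoter of Sprr1a is shown because it is the sole promoter of the list that holds the AP-1 motif, the element to which JUN dimers bind. A promoter (250 bases before to 50 after the start, RefSeq, GRCm38.p6) was found for 9 of the 10 genes, all except Gap43, and TGACTCA was searched on both strands. The motif stood in 1 of 10 promoters of these genes and in 5.20% of all 32851 promoters. The stretch from 162 to 94 bases before the start, at chr3:92485975-92486043 on the minus strand, is printed 5′ to 3′ with the motif, read as its reverse complement TGAGTCA, in capitals.
Sprr1a: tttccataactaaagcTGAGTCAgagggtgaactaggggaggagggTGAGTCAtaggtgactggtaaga
It held 2 matches, which began 146 and 116 bases before the start. The related cAMP response element TGACGTCA, searched in the same way, was in 1.79% of all promoters and in 0 of these. These are matches of letters and not measured binding.

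Cap1 (ENSMUSG00000028656, chr4:122859047-122886056, minus strand), a cyclase-associated protein that recycles actin monomers, was the most abundant of the 10 by CPM. Per length it led in WT, while in MFN2 mice Gap43 had the higher mean, 58.0 against 45.3 RPKM. Cap1 ranged from 148 to 174 CPM in WT and, around a median of 152, from 138.5 to 212.5 CPM in MFN2 mice, and the groups overlapped. Its log2 fold change was -0.05 (SE 0.11, adjusted p = 0.824 by edgeR's quasi-likelihood test), and -0.12 without library 43 (adjusted p = 0.292), so that even its interval (-0.28 to 0.18) held no more than a small change. Ppt1 overlaps Cap1 on the opposite strand, with 1375 to 2376 reads, which leaves the Cap1 count uncertain where strand was not used.

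Adcyap1 (ENSMUSG00000024256, chr17:93199017-93206537, plus strand), which encodes PACAP, a peptide that protects injured neurons, came nearest to a rise. In WT it was at 14.6, 11.3, 12.2 and 7.41 CPM in libraries 44 to 47. In MFN2 libraries 41 to 43 it was at 19.2, 16 and 23.6 CPM, and in libraries 72 to 76 at 17.4, 10.9, 16.4, 16.6 and 12.3 CPM. All MFN2 mice but 2 lay above all WT mice, and these, libraries 73 and 76, lay within the WT range. The log2 fold change of 0.54 (SE 0.21, 95% interval 0.09 to 0.98) had an unadjusted p of 0.0212 and an adjusted p of 0.285 in edgeR's quasi-likelihood test, and without library 43 it was 0.45 (unadjusted p = 0.0256, adjusted p = 0.185). Over the 11 libraries other than 43, Adcyap1 correlated with the summed forebrain markers at r = 0.91, and over all 12 at r = 0.64, as a description. These markers summed to 140.3 to 207 CPM in the other MFN2 mice and 109 to 142 CPM in WT, and their part in the Adcyap1 difference was not tested.

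Csf1 (ENSMUSG00000014599, chr3:107741048-107760469, minus strand), the cytokine through which injured motor neurons call microglia, showed no rise. It ranged from 32.6 to 44.2 CPM in WT and from 16.4 to 45.5 CPM in MFN2 mice (median 32.3), and library 43 was the lowest of all. The log2 fold change was -0.24 (SE 0.20, 95% interval -0.67 to 0.18, adjusted p = 0.549 by edgeR's quasi-likelihood test) and -0.14 without library 43 (adjusted p = 0.506). Its receptor gene Csf1r is among the receptors below.

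Ecel1 (ENSMUSG00000026247, chr1:87147655-87156521, minus strand), a neuronal endopeptidase of motor axons, and Gadd45a (ENSMUSG00000036390, chr6:67035096-67037457, minus strand), a stress protein tied to DNA repair and growth arrest, did not pass either. Ecel1 ranged from 21.4 to 30.3 CPM in WT and from 7.93 to 36.0 CPM in MFN2 mice, with library 43 the lowest, and its log2 fold change was -0.07 (SE 0.29, adjusted p = 0.921 by edgeR's quasi-likelihood test) with library 43 and 0.07 (adjusted p = 0.811) without it. Gadd45a ranged from 11.5 to 13.4 CPM in WT and from 5.82 to 12.9 CPM in MFN2 mice. Its log2 fold change was -0.36 (SE 0.17, 95% interval -0.73 to 0.01, adjusted p = 0.342, same test) and -0.28 (adjusted p = 0.225) without library 43. Neither gene separated the genotypes. The transcript E230016M11Rik, on the opposite strand of Gadd45a, held 70 to 232 reads, which leaves the Gadd45a count uncertain where strand was not used.

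Counted over all 12 mice, 0 of 9 genes passed at a false discovery rate of 0.05 in edgeR's quasi-likelihood test, beside 0 of 15942 genes (0%). At an unadjusted p under 0.05 there were 2 of 9, Adcyap1 higher and Jun lower, beside 15.0% of all genes, and DESeq2 called 0 of 9 beside 1.25% of all genes. Of the 9 log2 fold changes 4 were above 0 (Atf3 among them, tested through MFN2 mice alone), as were 50.8% over all genes. Their median was -0.05, and the median of all genes was 0.0038. For 0 of the 9 genes did the MFN2 and WT ranges separate, beside 0.979% of all genes separating upward and 1.07% downward. Without library 43 the test called 0 of 9 genes, beside 0.120% of all genes, with 4 of 9 at an unadjusted p under 0.05 (Gap43 and Adcyap1 higher, Jun and Gadd45a lower) beside 21.2% of all genes, and their median was 0.07. Bulk cord RNA averages motor neurons with every other cell, and fewer cells of a type and less RNA per cell cannot be told apart.

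**Figure D2:**
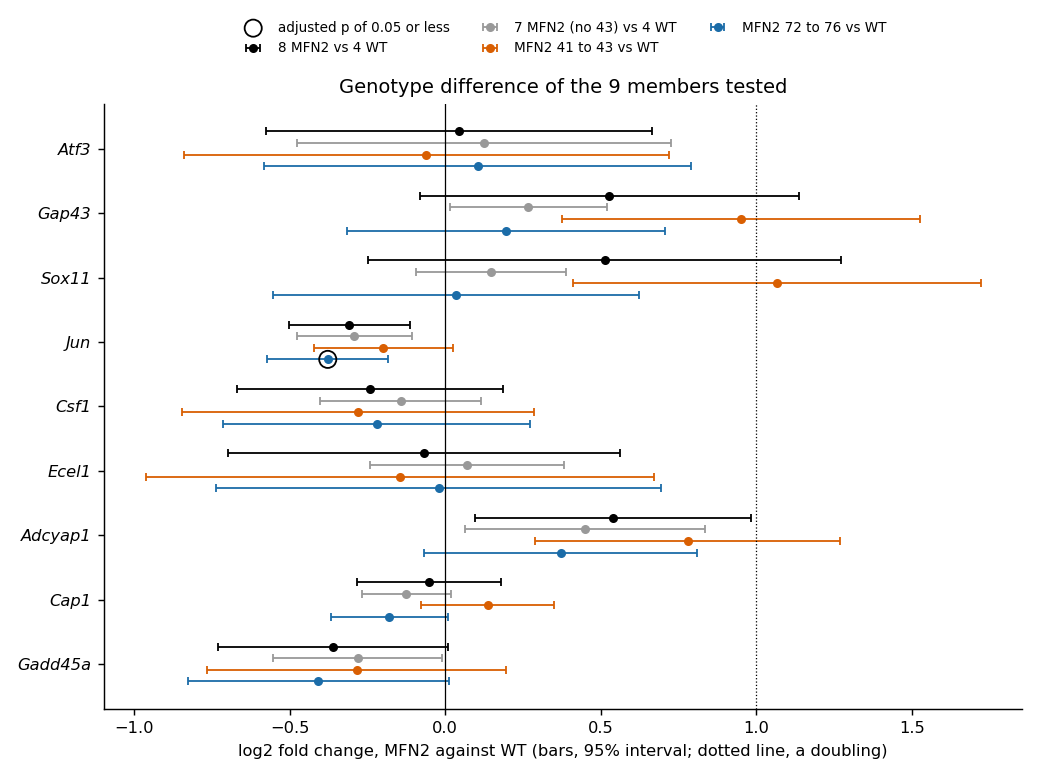
Log2 fold change of MFN2 against WT (horizontal axis) for the 9 genes tested, for all mice, without library 43, and for each run of MFN2 libraries against the same 4 WT mice; points are estimates, bars 95% intervals, the dotted line marks a log2 fold change of 1, and the circle marks an adjusted p at or below 0.05. Jun in libraries 72 to 76 is the sole circled value, at -0.38, and the intervals of Sox11 and Gap43 shrink once library 43 is left out.

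The runs of MFN2 libraries were then set against the same 4 WT mice, in a fit with 3 groups. These comparisons share their controls, so their values stand side by side and are not independent. In the first run, which holds mice of both genotypes, Gap43 was at 0.95, Sox11 at 1.07 and Adcyap1 at 0.78 on the log2 scale, each with an adjusted p of 0.263 by edgeR's quasi-likelihood test, and 0 of 9 genes passed (0% of all genes). In all 3 of these genes each MFN2 mouse of the run lay above each WT mouse, beside 4.53% of all genes that separated upward. With library 43 left out, libraries 41 and 42 still lay above all WT mice for the same 3 genes, beside 7.20% of all genes, with log2 fold changes of 0.43 for Gap43, 0.39 for Sox11 and 0.62 for Adcyap1 (adjusted p = 0.561, 0.548 and 0.582, edgeR's quasi-likelihood test). In these 2 libraries the forebrain markers summed to 207 and 176 CPM, above the 109 to 142 CPM of WT. Camk2a held 151.7 and 135.3 CPM of these sums, and 7 of 7 tested markers were above 0 (median 0.48, 0 called). The motor neuron markers summed to 178.5 and 259.4 CPM, against 205.1, 245.5, 243.8 and 431.7 CPM in WT libraries 44 to 47. Of these 8 markers 7 were below 0 (median -0.41, 0 called). The part of these cells in the 3 genes was not tested. Jun was at -0.20 in the first run (95% interval -0.42 to 0.02, adjusted p = 0.370) and at -0.10 without library 43 (interval -0.29 to 0.09, adjusted p = 0.838, edgeR's quasi-likelihood test).

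In the second run, Jun fell. Its log2 fold change was -0.38 (SE 0.09, 95% interval -0.57 to -0.18, adjusted p = 0.0270 by edgeR's quasi-likelihood test, n = 5 and 4), which made 1 of 9 genes called lower beside 4.11% of all genes, and 7.68% in either direction. Jun and Gadd45a were lower in each of the 5 mice than in each WT mouse, 2 of 9 genes beside 10.2% of all genes. Gadd45a was at -0.41 (adjusted p = 0.208) and Cap1 at -0.18 (adjusted p = 0.215, same test), and no member was called higher, with Adcyap1 at 0.37 (adjusted p = 0.274), Gap43 at 0.19 (adjusted p = 0.660) and Atf3 at 0.10 (adjusted p = 0.881). The Jun call was lost, with adjusted p from 0.0539 to 0.0958, when any 1 of WT libraries 45 and 47 or MFN2 libraries 72, 73, 74 and 75 was left out. Without library 43, which lends its spread to this fit, Jun (adjusted p = 0.00237), Gadd45a (0.0141) and Cap1 (0.0378) all passed in edgeR's quasi-likelihood test as lower, beside 22.9% of all genes called in either direction. The same 3 genes were called lower when libraries 72 to 76 and WT were fitted alone, beside 12.7% of all genes.

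Among markers of other cells, 2 microglia genes and 1 endothelial gene were called lower and 1 blood gene higher in the second run, beside 4.11% of all genes called lower and 7.68% in either direction (22.9% without library 43). The 10 microglia markers summed to 134 to 166 CPM in libraries 72 to 76 and 172 to 219.8 CPM in WT, all 10 had log2 fold changes below 0, and 2 of them, the fractalkine receptor Cx3cr1 (-0.50, adjusted p = 0.0301) and Tmem119 (-0.76, adjusted p = 0.0467), were called lower by edgeR's quasi-likelihood test (adjusted p = 0.00464 and 0.0151 without library 43). None of the 10 was at 0 in any library. The 8 astrocyte markers summed to 2212 to 3392 CPM in the second run and 3731 to 4787 CPM in WT, with 7 of 8 below 0, 0 called, Gfap the most abundant and none at 0. In first-run MFN2 libraries 41, 42 and 43 the microglia sums were 262.3, 159.8 and 253.5 CPM. The astrocyte sums there were 5192, 3007 and 1692 CPM, so that library 42 lay below all WT mice for both lists. The tight junction gene Cldn5 was the 1 of 7 endothelial markers called lower, at -0.82 (adjusted p = 0.0221, same test, and 0.00758 without library 43), and 6 of 7 were below 0 (median -0.22). Endothelial sums were 164 to 203 CPM in the second run and 164 to 199 CPM in WT, with Flt1 the most abundant at 63.8 to 73.5 and 26.2 to 68.4 CPM. Of the 7 blood markers, 5 were above 0 and 1, the haem synthesis gene Alas2, was called higher, at 17.2 to 44 CPM against 6.74 to 17.2 CPM in WT (log2 fold change 1.18, adjusted p = 0.0385, same test, and 0.0348 without library 43). Blood marker sums were 120.5 to 344 CPM in the second run and 69.4 to 229.6 CPM in WT, which overlap, with Hbb-bs the most abundant. Oligodendrocyte markers summed to 23088 to 34852 CPM in the second run and 24225 to 31104 CPM in WT, with 0 of 8 called. With libraries 72 to 76 and WT fitted alone, 5 of 10 microglia and 4 of 8 astrocyte markers were called lower, beside 12.7% of all genes. Over the 11 libraries without 43, Jun correlated with the summed astrocyte markers at r = 0.85 and with the microglia markers at r = 0.73, which were 0.85 and 0.46 over all 12, as a description. The 3 genes Gm23935, Gm26917 and Gm42418 took 7.27 to 7.81% of the reads in libraries 72 to 76 and 9.72 to 12.6% in libraries 41 to 47, with no overlap. The part of these cells, of these 3 genes or of the run in the lower Jun was not tested.

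Other lists bear on single libraries. Immediate early genes, which neuronal activity switches on and of which 9 of 10 passed the filter, summed to 327 CPM in library 43, 76.8 to 93.7 in the other MFN2 mice and 82.2 to 93.3 in WT, with Arc the most abundant. The 7 Schwann cell markers, 5 of which passed the filter, summed to 388 CPM in library 43 and 384 CPM in library 73, against 92.1 to 125 CPM in WT, with Pmp22 the most abundant. Sensory ganglion markers summed to at most 3.46 CPM in any library, and 1 of 8 passed the filter. Several of these injury genes also respond in the ganglia, and the part of ganglion RNA in their levels was not tested. Immature neuron markers summed to 669 CPM in library 43, 484 to 541 in the other MFN2 mice and 511 to 549 in WT, with Stmn2 the most abundant.

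The runs also differed within MFN2 mice. Sox11 was lower in libraries 72 to 76 than in 41 to 43 by a log2 fold change of -1.03 (SE 0.28, adjusted p = 0.0463 by edgeR's quasi-likelihood test), 1 of 9 genes beside 8.40% of all genes. Gap43 at -0.76 (adjusted p = 0.0755) and Cap1 at -0.32 (adjusted p = 0.0557) did not pass, but both passed when library 41 (adjusted p = 0.0284 and 0.0436, edgeR's quasi-likelihood test) or library 42 (0.0383 and 0.0226) was left out. With library 43 left out Sox11 was at -0.35 (adjusted p = 0.0468) and Jun at -0.28 (adjusted p = 0.0462), 2 of 9 genes beside 14.0% of all genes. Leaving out any WT library or any single library from 72 to 76 lost the Sox11 call, with adjusted p from 0.0604 to 0.0851. Among markers, 5 of 7 forebrain genes (median -3.10), 2 of 10 microglia genes and 1 of 9 immediate early genes were called lower. All 8 motor neuron markers were above 0 (median 0.70, 0 called). Cx3cr1 was called lower when library 43 was left out, at -0.57 (adjusted p = 0.0122, edgeR's quasi-likelihood test). The part of these cells in the run difference was not tested.

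**Figure D3:**
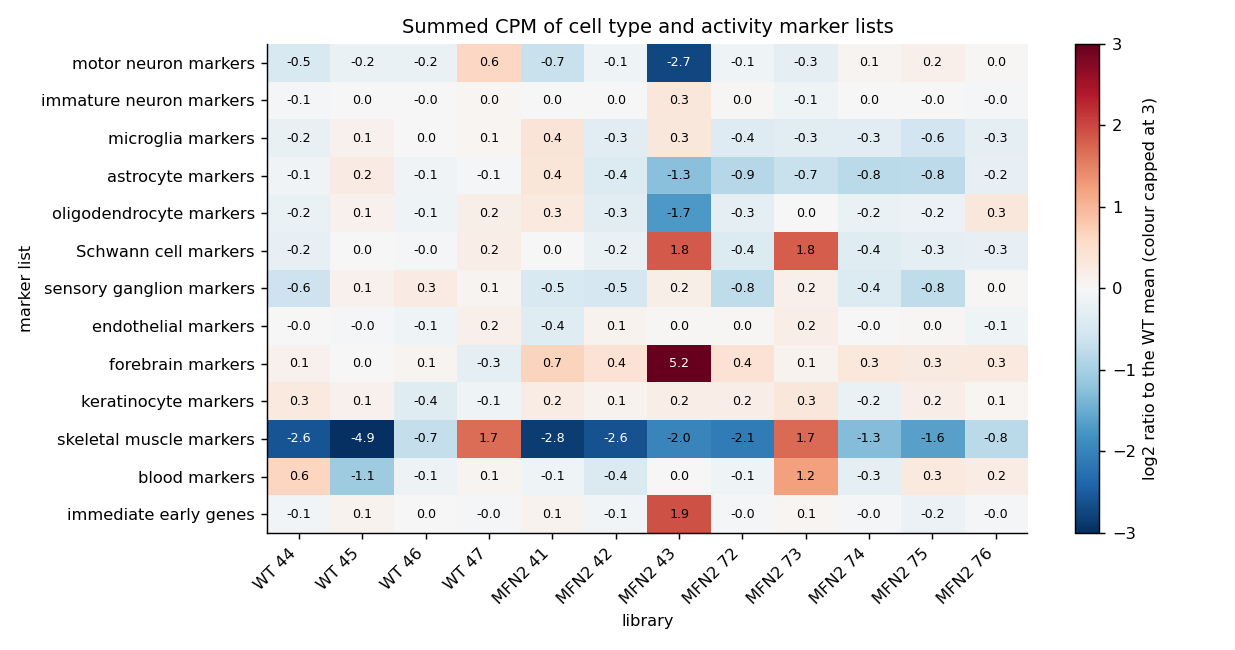
Summed CPM of each marker list (rows) in each library (columns) as a log2 ratio to the WT mean, with red above and blue below and the colour scale capped at 3. Library 43 is at 5.2 for forebrain markers and -2.7 for motor neuron markers, and libraries 43 and 73 are both at 1.8 for Schwann cell markers. Libraries 72 to 76 are all below 0 for astrocyte and microglia markers, as are MFN2 library 42 and WT library 44.

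Other genes of the axon injury programme were read from 6 lists with 100 genes in all, of which 88 passed the filter. In MFN2 against WT, 0 of the 88 were called by edgeR's quasi-likelihood test (0% of all genes), 14 (15.9%) had an unadjusted p under 0.05, 7 higher and 7 lower, beside 15.0% of all genes, and 43 lay above 0. DESeq2 called 2 of the 88, beside 1.25% of all genes. Without library 43 edgeR's quasi-likelihood test called 0, beside 0.120% of all genes, with 26 (29.5%) at an unadjusted p under 0.05 beside 21.2%. In the second run against WT, 5 of the 88 (5.68%) were called, 1 higher and 4 lower, beside 7.68% of all genes, and 23 (26.1%) without library 43, 9 higher and 14 lower, beside 22.9%. In the first run, which holds both genotypes, 0 of the 88 were called with or without library 43 (0% of all genes), 30 (34.1%) had an unadjusted p under 0.05, 23 higher and 7 lower, beside 14.9% of all genes, and 13 (14.8%), 10 higher and 3 lower, without library 43, beside 7.76%. The 12 that did not pass the filter included the injury cytokines Lif, Il6, Ccl2 and Ccl7 and the regeneration-associated Reg3b, at up to 26, 1, 7, 3 and 2 reads in any library.

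Of the 11 kinase relay genes, all tested, the median log2 fold change was -0.02, and -0.01 without library 43. Map2k7, the kinase that activates JNK, was at 18.5 ± 1.27 CPM in MFN2 mice (SD, n = 8) and 22.4 ± 1.20 in WT (n = 4), a log2 fold change of -0.28 (SE 0.07, adjusted p = 0.254 by edgeR's quasi-likelihood test), and -0.27 (adjusted p = 0.0929) without library 43. Mapk8ip1, the JNK scaffold also called JIP1, was at -0.21 (SE 0.07, adjusted p = 0.278), and -0.22 (adjusted p = 0.135) without it. Both were called lower in the second run, at -0.31 (adjusted p = 0.0243) and -0.29 (adjusted p = 0.0228), with edgeR's quasi-likelihood test, and also without library 43 (adjusted p = 0.00607 and 0.00370).

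The 20 other transcription factors had a median of 0.03, and -0.07 without library 43. Klf9, which holds back axon growth, was at 0.32 (SE 0.11, adjusted p = 0.278 by edgeR's quasi-likelihood test), and 0.25 (adjusted p = 0.130) without it, and was called higher in the second run without library 43 (0.29, adjusted p = 0.0202). Myc was at -0.25 (SE 0.13, adjusted p = 0.356), and -0.29 (adjusted p = 0.232) without it. Jund, a JUN relative and the factor with the highest level per length, was at -0.22 (adjusted p = 0.438) over all mice and -0.26 (adjusted p = 0.253) without library 43. It was called lower in the second run against WT, at -0.44 (SE 0.06, adjusted p = 0.00462, edgeR's quasi-likelihood test), and lower in the second than in the first run of MFN2 mice, at -0.53 (SE 0.07, adjusted p = 0.00326). Without library 43 these were -0.44 (adjusted p = 0.000409) and -0.54 (adjusted p = 0.000956). In the first run against WT it was at 0.09 (adjusted p = 0.568), and 0.10 (adjusted p = 0.807) without library 43.

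The 16 growth cone genes had a median of 0.04, and -0.07 without library 43. Tmsb10, a thymosin that binds actin monomers, was at 70.8 ± 7.02 CPM in MFN2 mice and 59.8 ± 1.13 in WT, a log2 fold change of 0.24 (SE 0.08, adjusted p = 0.278 by edgeR's quasi-likelihood test), and 0.23 (adjusted p = 0.133) without library 43. It was called higher in the second run at 0.29 (adjusted p = 0.0459, and 0.00629 without library 43). Marcksl1, an actin-linked growth protein, was at 0.41 (SE 0.14, adjusted p = 0.278), and 0.37 (adjusted p = 0.160) without library 43. Stmn3, a microtubule regulator and the most abundant per length, was at -0.16 (SE 0.08, adjusted p = 0.344), and -0.14 (adjusted p = 0.259) without it, and was called lower in the second run without library 43 (-0.19, adjusted p = 0.0393). This list held genes with differences in both directions, and no growth cone gene passed over all mice.

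The 20 neuropeptide and cytokine genes, of which 11 passed the filter, had a median of 0.64 that moved to 0.19 without library 43. Npy, the neuropeptide Y that injured sensory neurons make, stood at 23.0 CPM in library 43, 5.61 to 8.22 in the other MFN2 mice and 2.14 to 4.67 in WT, so that all 8 MFN2 mice lay above all WT mice, as did 0.979% of all genes. It is named as the gene of its list with the lowest p. Its log2 fold change was 1.40 (SE 0.41, 95% interval 0.51 to 2.29, adjusted p = 0.262 by edgeR's quasi-likelihood test) and 1.02 without library 43 (adjusted p = 0.0578). In the second run it was at 1.08 (adjusted p = 0.120), and it was called higher there without library 43 (adjusted p = 0.00216). Crh, the corticotropin-releasing hormone, was at 1.35 (SE 0.53, adjusted p = 0.294) and 0.88 without library 43 (adjusted p = 0.166). Cck, the cholecystokinin gene, was at 161 CPM in library 43, 16 to 21.8 in the other MFN2 mice and 14.8 to 17.1 in WT, and its log2 fold change of 1.15 (adjusted p = 0.423) became 0.16 (adjusted p = 0.316) without that library. All 3 genes are also made by forebrain neurons, whose part in these values was not tested.

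The 17 receptor genes, 16 of them tested, had a median of -0.13, with 13 below 0, and -0.10 without library 43. Tnfrsf12a, the TWEAK receptor that promotes neurite growth, was at 3.45 ± 1.19 CPM in MFN2 mice and 5.99 ± 1.57 in WT, a log2 fold change of -0.80 (SE 0.30, adjusted p = 0.285 by edgeR's quasi-likelihood test), and -0.66 without library 43 (adjusted p = 0.111). It was called lower in the second run without library 43 (-0.58, adjusted p = 0.0462). Cntfr, which binds ciliary neurotrophic factor on motor neurons, was at -0.33 (SE 0.14, adjusted p = 0.311), and -0.29 (adjusted p = 0.240) without library 43. It was called lower in the second run at -0.47 (adjusted p = 0.0459, and 0.000365 without library 43). Csf1r was not called in either run in the fit with 3 groups, with or without library 43.

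The 16 other effectors, 14 of them tested, had a median of -0.01, and 0.03 without library 43. Hspb1, a small heat shock protein that protects injured motor neurons, was at 6.19 ± 1.76 CPM in MFN2 mice and 9.44 ± 2.25 in WT, a log2 fold change of -0.61 (SE 0.24, 95% interval -1.13 to -0.08, adjusted p = 0.294 by edgeR's quasi-likelihood test) and -0.49 without library 43 (adjusted p = 0.123). In the second run it was called lower without library 43 (-0.50, adjusted p = 0.0365). Hrk, a BH3 protein that JNK signalling induces, was at 40.8 CPM in library 43, 2.90 to 5.01 in the other MFN2 mice and 1.57 to 3.58 in WT, a log2 fold change of 1.64 (adjusted p = 0.355) that became 0.48 (adjusted p = 0.215) without it. Nefl, the neurofilament light chain and the most abundant effector per length, was at 734 CPM in library 43, 2575 to 3669 in the other MFN2 mice and 2548 to 3835 in WT. Its log2 fold change of -0.18 (SE 0.31, adjusted p = 0.793) became -0.03 (adjusted p = 0.897) without that library. None of these effectors passed over all mice.

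**Figure D4:**
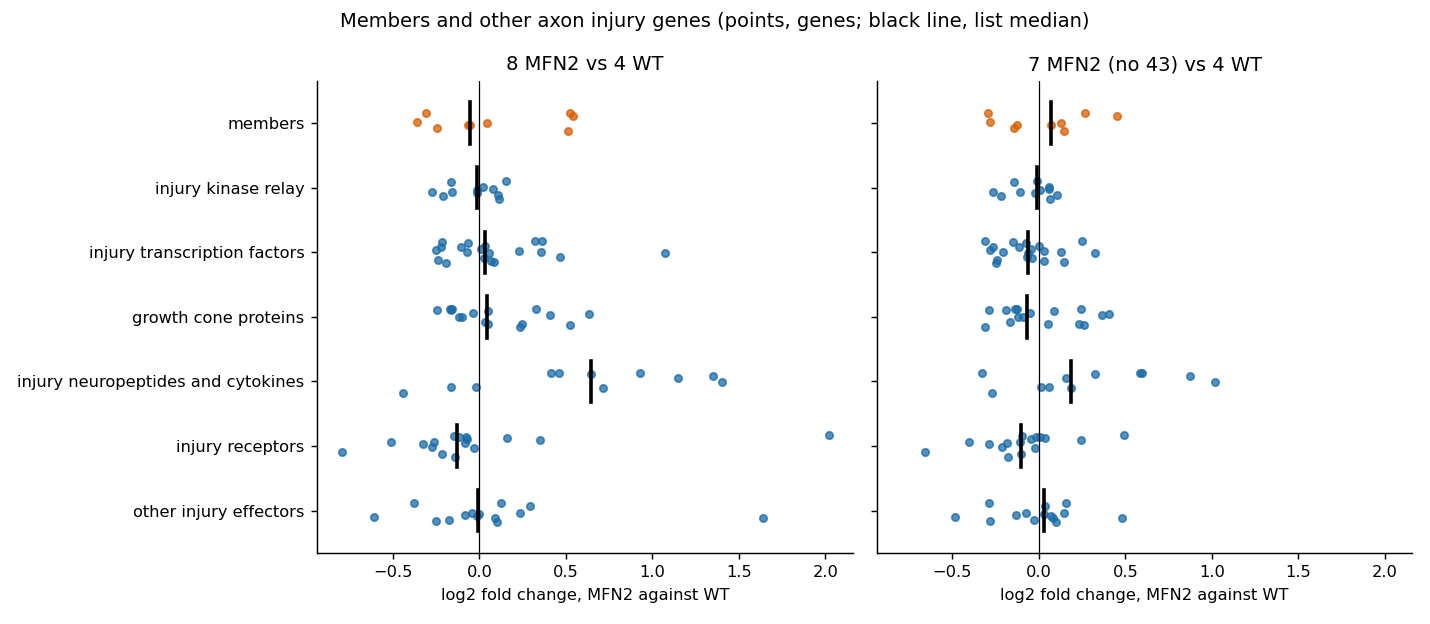
Log2 fold change of MFN2 against WT (horizontal axis) for the 9 members tested (orange) and for the 88 other genes by list (blue), with all mice on the left and without library 43 on the right; each point is a gene and the black line the list's median. The neuropeptide and cytokine median moves from 0.64 to 0.19 when library 43 is left out, and the other medians lie within 0.13 of 0 in both panels.

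From mouse to mouse, some of the 9 tested genes followed each other and others did not. Over the 36 pairs of the 9 tested genes the median correlation of log2 CPM was -0.19 across 12 libraries, with 17 pairs above 0, and 0.14 across the 11 without library 43, with 24 pairs above 0. Over those 11 libraries Jun, Csf1, Cap1 and Gadd45a correlated with each other at r = 0.64 to 0.90, and Gap43, Sox11, Ecel1 and Adcyap1 at r = 0.45 to 0.73, sets picked after their values were seen. The tested gene whose levels were most like those of each member over those 11 libraries was Sox10 for Csf1 (r = 0.99), Ppp2r2c for Cap1 (r = 0.99), Nsg2 for Adcyap1 (r = 0.98), Mboat1 for Jun (r = 0.97) and Neurl1a for Ecel1 (r = 0.96). It was Crnde for Gadd45a (r = 0.95), Olfm2 for Gap43 (r = 0.95), BC029722 for Sox11 (r = 0.94) and Socs4 for Atf3 (r = 0.90). Library 43 decided several of these: over all 12 libraries Ecel1 and Neurl1a were at r = -0.71, Sox11 and BC029722 at 0.16 and Atf3 and Socs4 at 0.58, while the other 6 pairs lay between 0.83 and 0.99. Sox10 is a transcription factor of oligodendrocytes. Csf1 correlated over the same 11 libraries with the summed microglia (r = 0.88), astrocyte (r = 0.86) and oligodendrocyte markers (r = 0.85), which over all 12 were 0.01, 0.85 and 0.96, all values being descriptions that share library and run.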

How the data were processed

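Lumbar cord RNA of 8 MFN2 and 4 WT mice was analysed, 1 library per mouse. The authors aligned the reads with STAR to GRCm38.p6 and deposited whole-number counts per gene, not normalized. The labels name an mRNA kit and the methods a stranded total RNA kit, and the counting tool and strand setting are not given in the sources used here. Of 49548 gene IDs, 49289 matched a symbol.

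Genes above 1 CPM in at least 3 libraries (15942) were given TMM factors and fitted in R 4.3.3 by edgeR 4.0.16 (quasi-likelihood, robust) at a false discovery rate of 0.05. Log2 CPM used a prior count of 2, and RPKM the union of annotated exons. Intervals are 95%. The fit with 3 groups (WT, MFN2 41 to 43, MFN2 72 to 76) gave the comparisons by run. Members and lists were chosen with earlier results of these data known. Of the other injury genes, the text names the 2 with the lowest p and the most abundant per length of each list. Genes named beyond this rule (Csf1r, those under the filter, the markers, Gm23935, Gm26917 and Gm42418) were chosen after their values were seen. Alternatives were DESeq2 1.42.0, limma 3.58.1, other filters and scalings, each run alone or as a covariate, and leaving out each library. No 2 libraries of a genotype had the same counts: at least 15700 genes had unequal read counts in each of 34 pairs. Such a check can only find a copied library. The fit was tested on 1 set of simulated data for MFN2 against WT, with 100 genes changed at each of 2 sizes among 15697. Every simulated gene had the same spread between mice, with no outlying library and no difference between runs. Changed genes were drawn from the more abundant ones. The shares called therefore do not carry over to the 10 genes in the real libraries. It called 10 of the 100 genes changed by 0.5 on the log2 scale and 92 of the 100 changed by 1.0. There were 8 false calls in all, counted once for both sizes.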

Additional observations from a re-analysis of the deposited data

Results flagged for a closer look

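Among the 8 MFN2 mice, library 43 was separated from the nearest library by a gap of 0.808 of the whole range for Gap43, 0.823 for Sox11 and 0.561 for Cap1, each above the critical value of 0.526 for 8 samples in Dixon's test. In all, 20 groups (10 genes in 2 genotypes) were tested, where about 1 in 20 passes by chance, and all 3 that passed were library 43. Sox11 against WT differed between the runs of MFN2 libraries, by -1.03 on the log2 scale (adjusted p = 0.0463, edgeR's quasi-likelihood test), and by -0.35 (adjusted p = 0.0468) without library 43.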

How the results depend on the processing

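No paired analysis was possible because the sample labels give no litter or other link between single MFN2 and WT mice. The number of genes called in MFN2 against WT (0) became 200 with DESeq2, 19 without library 43, 1 with MFN2 libraries 41 to 43 fitted alone against WT and 3746 with libraries 72 to 76 fitted alone, and ranged from 0 to 19 with each library left out. Members called (0) became 3 with libraries 72 to 76 alone, where Jun (-0.38), Gadd45a (-0.41) and Cap1 (-0.18) were lower beside 12.7% of all genes, and stayed at 0 to 0 with each library left out. The members' median became 0.17 without library 43 and with run as a covariate, and ranged from -0.09 to 0.07 with each library left out. No WT mouse was in the second run, so the fit with run as a covariate compares only first-run MFN2 mice with WT. Values given for that fit, with or without library 43, thus repeat the first-run comparison and are not a separate adjustment. Other injury genes called (0) became 2 with DESeq2 and 26 with libraries 72 to 76 alone. Members called in the second run (1) ranged from 0 to 3 and between the runs (1) from 0 to 3 with each library left out, and the latter became 0 with library size scaling. The sign turned for Atf3 with limma-voom (-0.0055), with run as a covariate (-0.061) and without WT library 46 (range -0.089 to 0.134 with each library left out). It turned for Csf1 without library 43 and with run as a covariate (0.031), for Ecel1 without library 43 (0.070, where each library left out gave -0.168 to 0.070, and 0.27 with run as a covariate too), and for Cap1 with libraries 41 to 43 alone (0.15), with run as a covariate (0.14) and without library 43 and with that covariate (0.0020). The causes were not tested. Sprr1a is limited by its read counts.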
